A study of Homo sapiens with 12 samples.

Results

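The 33 human genes described here encode enzymes of sterol and fatty acid synthesis, the regulators that set their transcription, and 3 genes that oxysterols switch on through the liver X receptors (LXR). They were chosen by symbol, as 30 synthesis and regulation genes of the kind driven by sterol regulatory element-binding proteins (SREBP) and the LXR targets ABCA1, ABCG1 and MYLIP. These genes were picked with earlier results of these data known, so their shares set beside all genes are not independent support. All 33 of them, out of 58243 human identifiers in the files and 18628 human genes tested, had counts high enough to be tested. The study asked what palbociclib, a drug that blocks the kinases CDK4 and CDK6 at entry into the cell cycle, does to early-stage breast tumours while it is given and after it is withdrawn. Every tumour grew under the skin of an athymic nude mouse, a host without mature T cells, from injected cells of MCFDCIS, a single human breast line whose tumours resemble ductal carcinoma in situ. Tumours had 2 weeks to establish before dosing. The 4 groups of 3 tumours were palbociclib recovery, collected after a drug-free period that followed 2 weeks of daily palbociclib at 50 mg per kg by mouth, vehicle recovery, collected after vehicle and the same kind of interval, palbociclib initial, collected at the end of the 2 weeks of drug, and vehicle initial, collected at the end of the 2 weeks of vehicle. The sources used here do not give the length of the recovery period or the age of the animals. The labels do not tie each tumour to a mouse of its own, so a p-value speaks of spread between tumours, which may share a host.

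Cells make cholesterol from acetyl-CoA through mevalonate, farnesyl diphosphate, squalene and lanosterol, and they make fatty acids from the same precursor through malonyl-CoA. When sterols in the endoplasmic reticulum run low, SCAP carries the SREBP precursors, encoded by SREBF1 and SREBF2, to the Golgi, where they are cut and released to activate these genes. INSIG1 holds SCAP back when sterols are plentiful, whereas oxysterols, which accumulate with sterol excess, activate LXR, which raises cholesterol export through ABCA1 and ABCG1, limits lipoprotein uptake through MYLIP, and raises transcription of SREBF1. Growing cells need sterols and fatty acids for new membrane.

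Total RNA of whole tumours was sequenced, and each tumour yielded 8004903 to 15716211 counts on genes, of which 14.2% to 25.4% lay on mouse genes of the host. Levels are given in CPM, a gene's counts relative to all human gene counts of its library, after trimmed mean of M-values (TMM) scaling. Vehicle recovery library 2 stood apart, with a first principal component score of 113 against -37.6 to 14.2 in the other 11 libraries, and vehicle initial libraries 2 and 3 had 5.32% and 11.2% of their human counts on mitochondrial genes, against 0.674% to 2.64% elsewhere. Values without these libraries are given beside results that they move. For the epithelial label, 8 of 8 marker genes (KRT5, KRT6A, KRT14, KRT17, TP63, EPCAM, CDH1 and ITGA6) were counted in every library. KRT17 was the largest part of their sum, at 2944 to 5031 CPM, and KRT6A reached 551 CPM in palbociclib recovery library 3. Their summed levels were 7180 to 11210 CPM in palbociclib recovery, 7669 to 8660 CPM in vehicle recovery, 7615 to 8472 CPM in palbociclib initial and 6478 to 6932 CPM in vehicle initial tumours. The endothelial marker PECAM1 also had at least 347 counts in every library, so being counted does not test the label. No luminal genes were set against these markers.

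The lipogenic enzymes SCD, FASN and ACLY were the most abundant transcripts of the group once exon length was allowed for. Per kilobase of exon, the mean level over the 12 tumours was highest for SCD, the desaturase that makes oleate, at 170 RPKM, which is CPM divided by the exon length in kilobases. FASN, the fatty acid synthase, followed at 77.5 RPKM, ACLY, which makes cytosolic acetyl-CoA from citrate, at 67.2 RPKM, and the regulator SREBF1 at 49.6 RPKM. Among the sterol enzymes FDFT1, the squalene synthase, averaged 40.5 RPKM, and DHCR7, which acts in the last steps to cholesterol, 36.0 RPKM. The remaining fatty acid genes ACSS2, ACACA, ELOVL6, FADS1 and FADS2 were below both, at 1.16 to 11.9 RPKM. At the low end stood ABCA1 at 0.409 RPKM, ABCG1 at 0.650 RPKM, FADS2, the delta-6 desaturase, at 1.16 RPKM and CYP51A1, the lanosterol demethylase, at 1.44 RPKM. For CYP51A1 83.2% of the exon bases are also annotated to other genes, among them an antisense RNA, and 3 pseudogenes carry its name, so its level is uncertain where the strand setting of the counting is unknown.

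**Figure D1:**
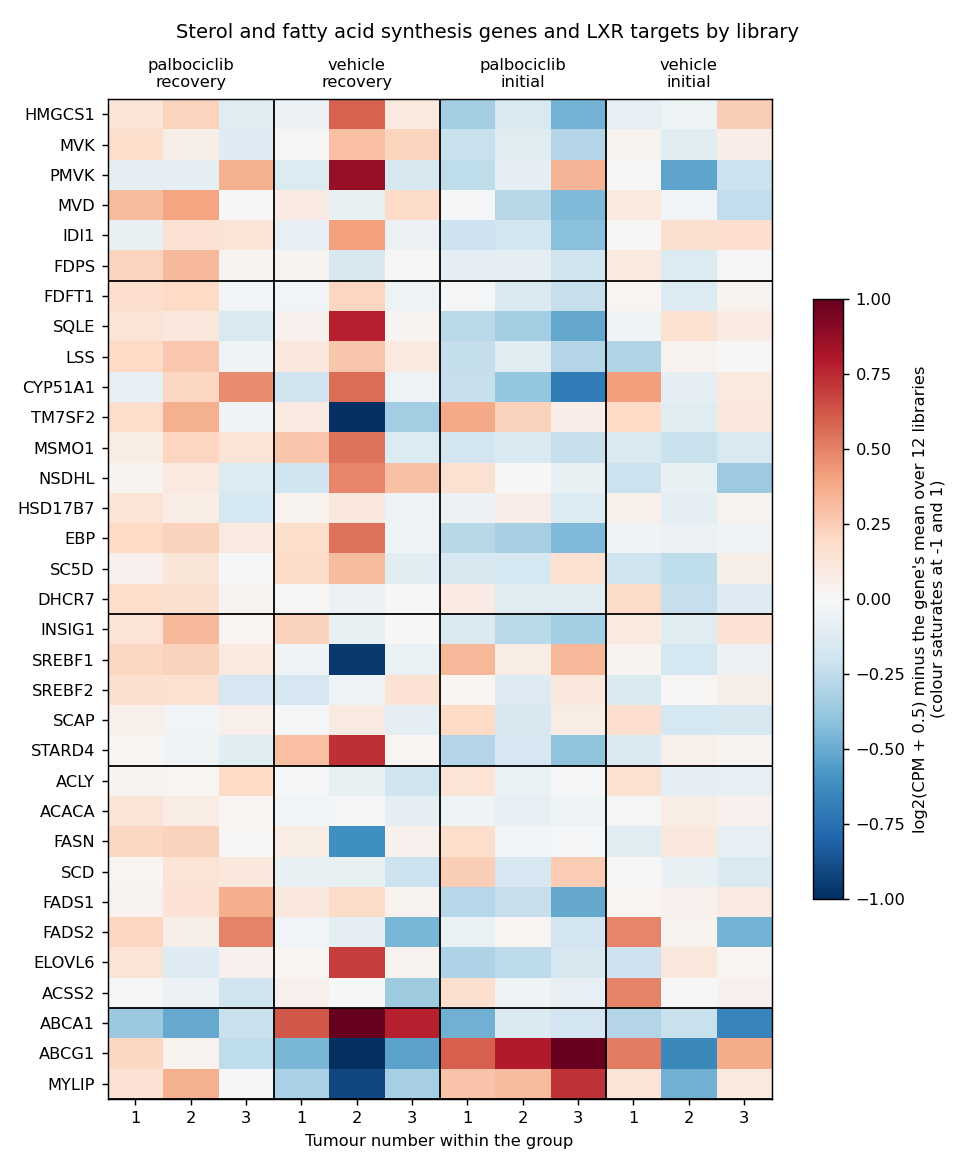
Level of each of the 33 genes (down the page, by role) in each of the 12 tumours (across), as log2(CPM + 0.5) minus the gene's mean over all tumours, with colours that saturate at -1 and 1. The 3 palbociclib initial tumours are low for most sterol enzymes, and vehicle recovery library 2 is the highest tumour for 14 of the 30 synthesis genes.

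Across the 12 tumours the synthesis genes did not move as 1 block. Vehicle recovery library 2 was the highest tumour for 4 of 6 mevalonate genes and 8 of 11 genes from squalene to cholesterol, yet the lowest for SREBF1, for FASN and for TM7SF2, a sterol C14 reductase. Palbociclib initial library 3 was the lowest tumour for 13 of the 30. As the mean of log2(CPM + 0.5) centred per gene, the 30 genes stood at 0.11, 0.14 and 0.05 in palbociclib recovery, at 0.03, 0.14 and -0.04 in vehicle recovery, at -0.06, -0.13 and -0.17 in palbociclib initial and at 0.03, -0.07 and -0.03 in vehicle initial tumours. The palbociclib recovery tumours thus lay above all palbociclib initial tumours, while the vehicle groups overlapped.

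The comparison of palbociclib recovery with palbociclib initial tumours asks what changed over the drug-free period. Withdrawal of the drug and the passage of time cannot be told apart within it. FADS1, the delta-5 desaturase that makes arachidonic acid, was the only 1 of the 33 genes to pass in any of the 5 comparisons in edgeR, and here it rose. Another 23 synthesis genes had positive fold changes without passing, including all 6 mevalonate genes (HMGCS1, MVK, PMVK, MVD, IDI1 and FDPS). Log2 fold changes of the 30 synthesis genes ranged from -0.11 to 0.71 with a median of 0.25, against a median of -0.01 over all human genes tested. A gene is said to pass at a Benjamini-Hochberg adjusted p under 0.05 over all 18628 human genes in edgeR's quasi-likelihood test, and 2.36% of all genes passed as higher and 0.467% as lower in this comparison. In bulk tissue, fewer cells of a type and less RNA per cell cannot be told apart.

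FADS1 (ENSG00000149485, chromosome 11, bases 61799625 to 61829318 of GRCh38, minus strand) had 37.4, 40.3 and 47.0 CPM in palbociclib recovery tumours, against 29.8, 31.1 and 25.5 CPM in palbociclib initial tumours. Every recovery tumour was above every initial tumour. The log2 fold change was 0.53 ± 0.12 (SE), with an edgeR adjusted p of 0.030. In vehicle tumours FADS1 had 39.3, 41.8 and 37.3 CPM after recovery and 37.0, 37.5 and 38.9 CPM at the initial stage. The palbociclib initial tumours were the low ones, below all 9 others. FADS1 shares 5.57% of its exon bases with FADS2 and the microRNA gene MIR1908.

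EBP (ENSG00000147155, chromosome X, bases 48521158 to 48528716, plus strand), the sterol isomerase that moves the ring double bond late in cholesterol synthesis, had 39.3, 40.3 and 36.4 CPM in palbociclib recovery and 28.1, 27.1 and 25.0 CPM in palbociclib initial tumours. The groups did not overlap, at 0.53 ± 0.14 on the log2 scale and an edgeR adjusted p of 0.057. INSIG1 (ENSG00000186480, chromosome 7, bases 155297776 to 155310235, plus strand) had 149, 170 and 138 CPM in palbociclib recovery and 123, 113 and 107 CPM in palbociclib initial tumours. It too did not overlap, at 0.42 ± 0.12 and an edgeR adjusted p of 0.10. MVD, which decarboxylates mevalonate diphosphate, had 57.2, 60.7 and 46.0 CPM in palbociclib recovery and 45.3, 37.9 and 33.7 CPM in palbociclib initial tumours. The lowest recovery tumour was just above the highest initial tumour, at 0.49 ± 0.15 and an edgeR adjusted p of 0.11.

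The promoters of 29 of the 33 genes were found in RefSeq's table of start sites, in 39 windows of 300 bases running from 250 bases before to 50 after a start. A strict sterol regulatory element, TCACNCCAC on either strand, occurred in 1.13% of all 35116 human windows and, among these genes, only in that of SREBF2. The E-box CACGTG, which SREBPs can also bind, was in 7.26% of all windows and in those of ABCA1, INSIG1, LSS, SC5D and SCAP. CCAAT, the site of the partner factor NF-Y, was in 34.6% of all windows and 66.7% of the members' windows, and the GC box GGGCGG, bound by Sp1, in 45.0% and 89.7%. The LXR repeat DR4, AGGTCA repeated after a gap of 4 bases, in 0.0199% of all windows, was in none of the members'. The windows of FADS1, EBP and INSIG1, the genes with the smallest p-values in the comparison above, of SREBF2, the only window with the strict element, and of ABCA1 follow 5′ to 3′ from RefSeq on GRCh38.p14, with capitals marking TCACNCCAC, CACGTG and CCAAT on either strand (CCAAT reads ATTGG on the other strand). A match describes the letters only. The windows are chr11:61816954-61817253 (minus strand) for FADS1, chrX:48521558-48521857 (plus) for EBP, chr7:155297628-155297927 (plus) for INSIG1, chr22:41832855-41833154 (plus) for SREBF2 and chr9:104928106-104928405 (minus) for ABCA1.
FADS1: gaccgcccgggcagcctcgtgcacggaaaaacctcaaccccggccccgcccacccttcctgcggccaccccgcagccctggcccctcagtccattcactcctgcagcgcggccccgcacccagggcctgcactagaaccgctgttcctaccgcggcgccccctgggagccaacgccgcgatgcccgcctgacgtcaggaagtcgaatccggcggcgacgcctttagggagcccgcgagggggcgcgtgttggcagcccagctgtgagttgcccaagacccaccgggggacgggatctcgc
EBP: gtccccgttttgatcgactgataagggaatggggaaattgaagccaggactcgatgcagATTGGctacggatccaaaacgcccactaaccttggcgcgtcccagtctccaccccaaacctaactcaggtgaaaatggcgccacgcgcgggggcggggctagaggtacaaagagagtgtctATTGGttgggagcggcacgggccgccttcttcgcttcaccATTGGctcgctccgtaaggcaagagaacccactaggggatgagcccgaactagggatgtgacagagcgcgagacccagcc
INSIG1: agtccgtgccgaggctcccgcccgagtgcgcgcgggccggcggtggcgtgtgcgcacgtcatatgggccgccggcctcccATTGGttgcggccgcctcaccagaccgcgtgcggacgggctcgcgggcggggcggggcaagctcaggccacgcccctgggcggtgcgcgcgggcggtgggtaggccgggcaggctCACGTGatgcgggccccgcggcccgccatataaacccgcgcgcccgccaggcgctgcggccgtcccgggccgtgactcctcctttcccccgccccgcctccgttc
SREBF2: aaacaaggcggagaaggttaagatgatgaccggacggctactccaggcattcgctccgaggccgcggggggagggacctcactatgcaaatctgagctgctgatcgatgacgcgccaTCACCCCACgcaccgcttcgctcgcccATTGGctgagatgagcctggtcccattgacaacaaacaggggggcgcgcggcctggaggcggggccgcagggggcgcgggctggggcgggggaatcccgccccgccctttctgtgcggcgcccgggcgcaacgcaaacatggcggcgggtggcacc
ABCA1: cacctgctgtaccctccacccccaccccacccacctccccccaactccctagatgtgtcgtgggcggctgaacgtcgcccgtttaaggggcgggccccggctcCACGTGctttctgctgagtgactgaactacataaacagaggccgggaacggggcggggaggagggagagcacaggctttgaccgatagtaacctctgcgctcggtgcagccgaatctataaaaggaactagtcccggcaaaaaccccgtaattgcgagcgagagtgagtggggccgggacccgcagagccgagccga

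The FADS1 window held none of the capitalised motifs. In INSIG1 the E-box began at position -55 from the start and CCAAT at -170, in SREBF2 the strict element began at -133 and CCAAT at -106, and in ABCA1 the E-box began at -147.

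By role, 4 of 6 mevalonate genes, 5 of 11 genes from squalene to cholesterol, 2 of 5 regulation and transport genes and 4 of 8 fatty acid genes lay wholly higher in palbociclib recovery tumours. Together 15 of the 30 were higher without overlap and 0 were lower, where 14.9% of all human genes tested were higher and 14.2% lower without overlap. At an unadjusted edgeR p under 0.05, 12 of the 30 were higher and 0 lower, against 8.83% and 5.54% of all genes. HMGCS1, which makes HMG-CoA, had 94.5, 101 and 79.2 CPM in palbociclib recovery and 68.0, 77.6 and 62.2 CPM in palbociclib initial tumours, a log2 fold change of 0.40 ± 0.17. SQLE, the squalene epoxidase, had 114, 113 and 93.9 CPM in palbociclib recovery and 86.2, 81.8 and 72.8 CPM in palbociclib initial tumours, at 0.41 ± 0.17. For both genes the groups were apart, with edgeR adjusted p-values of 0.28 and 0.29.

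**Figure D2:**
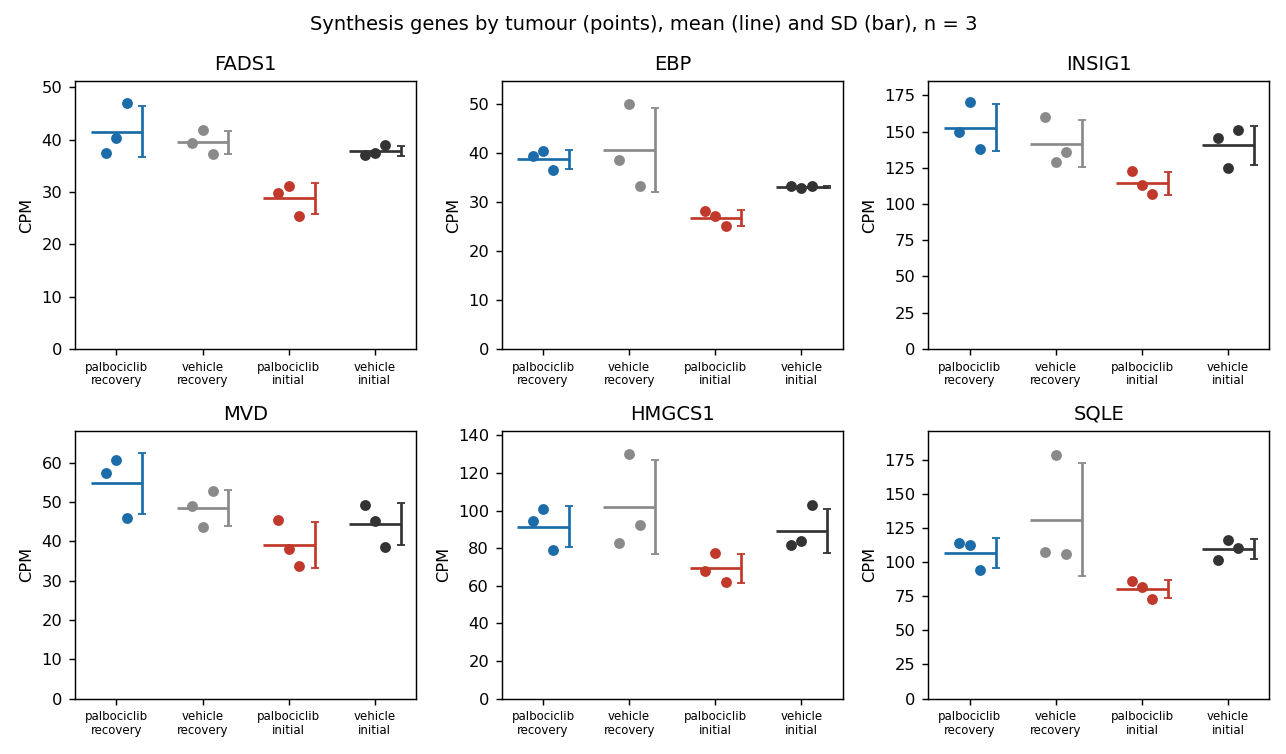
CPM of 6 synthesis genes in every tumour (points), with the mean (line) and SD (bar) of each group of 3. For FADS1, EBP and HMGCS1, as for the others, the palbociclib initial tumours lie below the palbociclib recovery tumours; FADS1 spans 25.5 to 31.1 CPM in palbociclib initial tumours.

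Other sterol enzymes gave smaller or less precise values. FDPS, the farnesyl diphosphate synthase, which has 8 named pseudogenes, stood at 0.32 ± 0.11 on the log2 scale, LSS, the lanosterol synthase, at 0.37 ± 0.13, and IDI1, the isopentenyl diphosphate isomerase, at 0.34 ± 0.14. MSMO1, the C4 sterol demethylase, was at 0.33 ± 0.14, and CYP51A1 had the largest value of the 30, 0.71 ± 0.28, from 5.89 ± 1.22 CPM in palbociclib recovery and 3.60 ± 0.653 CPM in palbociclib initial tumours (SD, n = 3 each). None of these passed.

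The fatty acid side was less uniform. FASN had 831, 840 and 723 CPM in palbociclib recovery and 811, 706 and 709.1 CPM in palbociclib initial tumours, a log2 fold change of 0.10 ± 0.16. SCD had 917, 995 and 977 CPM in palbociclib recovery and 1078, 806 and 1083 CPM in palbociclib initial tumours, at -0.04 ± 0.13. The groups overlapped for both. ACACA, the acetyl-CoA carboxylase that commits carbon to fatty acids, was at 0.13 ± 0.09, ELOVL6, which lengthens palmitate, at 0.26 ± 0.16, and FADS2 at 0.35 ± 0.22, and each lay wholly higher in palbociclib recovery tumours without passing. ACSS2, which makes acetyl-CoA from acetate, had 62.7, 60.8 and 55.2 CPM in palbociclib recovery and 70.9, 61.7 and 60.0 CPM in palbociclib initial tumours, at -0.11 ± 0.15.

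Unlike INSIG1, given above, the regulators SREBF1, SREBF2 and SCAP showed overlapping groups. SREBF1 had 449, 457 and 416 CPM in palbociclib recovery and 490, 410 and 489 CPM in palbociclib initial tumours, a log2 fold change of -0.07 ± 0.19. SREBF2 had 174, 173 and 138 CPM in palbociclib recovery and 157, 142 and 168 CPM in palbociclib initial tumours, at 0.05 ± 0.12. SCAP averaged 105 ± 3.34 CPM in palbociclib recovery and 106 ± 13.2 CPM in palbociclib initial tumours (SD, n = 3 each). The overlap of these 3 regulators between the groups does not show that they were alike.

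**Figure D3:**
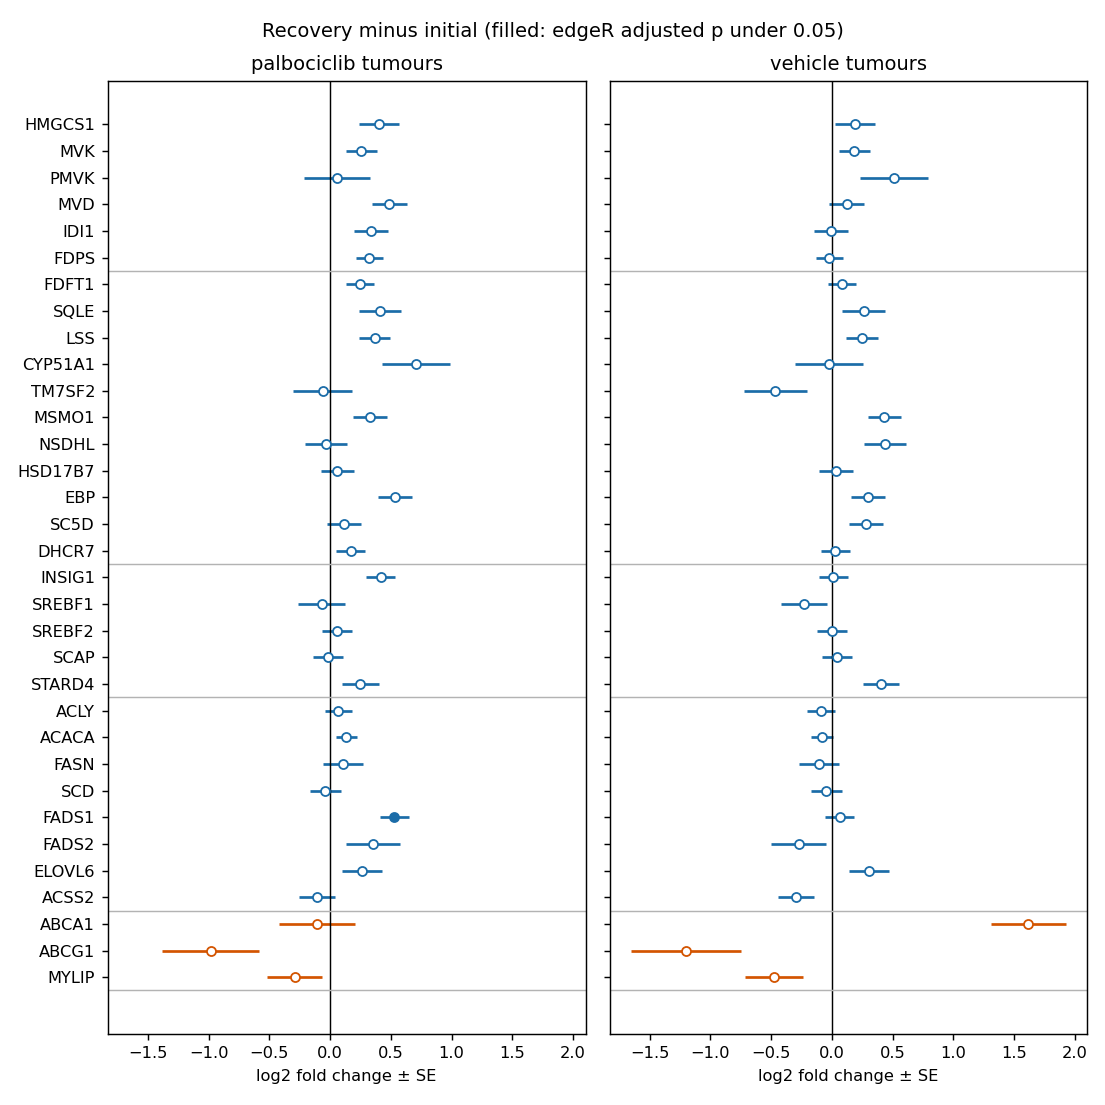
Log2 fold change of recovery over initial tumours with its SE (horizontal axis) for each of the 33 genes, in palbociclib tumours (left) and in vehicle tumours (right); filled points passed in edgeR. FADS1 on the left, at 0.53, is the only filled point, and ABCA1 on the right, at 1.62, is the farthest from 0.

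The count of genes that passed between palbociclib recovery and palbociclib initial tumours moved with a library that is in neither group. Without vehicle recovery library 2, in a fit of 19343 genes, 9 of the 30 were higher in edgeR (EBP, FADS1, FDPS, HMGCS1, IDI1, INSIG1, MSMO1, MVD and SQLE) and ABCG1 was lower, where 5.06% of all genes were higher and 2.31% lower. The median of the 30 remained at 0.25. With only the 2 groups compared in the fit, 9 were higher and ABCG1 lower, against 6.17% and 3.04% of all genes, and LSS took the place of IDI1. FADS1 passed in 15 of 22 alternatives and kept its direction in 22. It did not pass without vehicle initial libraries 2 and 3, at an edgeR adjusted p of 0.076 with 1.47% of all genes higher and 0.19% lower, nor when palbociclib initial library 1, 2 or 3, palbociclib recovery library 2 or 3, or vehicle initial library 3 was left out singly, where the edgeR adjusted p ranged from 0.055 to 0.18.

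Genes of the cell cycle moved with the same comparison. The summed level of MKI67, TOP2A, CCNB1 and CDK1, 4 of 4 measured, was 498 to 513 CPM in palbociclib recovery and 81.2 to 166 CPM in palbociclib initial tumours, against 545 to 808 CPM in vehicle recovery and 477 to 608 CPM in vehicle initial tumours. The human copies of 5 macrophage markers summed to 16.35 to 20.3 CPM in palbociclib recovery and 12.9 to 16.41 CPM in palbociclib initial tumours, with a slight overlap. Of these markers CD68, ADGRE1 and PTPRC each averaged under 1 CPM over the 12 tumours. The human copies of 6 adipocyte markers overlapped too, at 23.9 to 30.8 CPM in palbociclib recovery and 28.1 to 33.2 CPM in palbociclib initial tumours. Nearly all of it was PLIN4, and ADIPOQ, LEP, FABP4 and CIDEC averaged under 1 CPM. By the design the injected line was the only source of human cells. Human copies of such markers therefore do not count host cells, unless mouse reads were assigned to human genes. The part of proliferation and of such reads in the result was not tested.

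All 3 LXR targets had negative log2 fold changes between palbociclib recovery and palbociclib initial tumours. ABCG1, which exports cholesterol to lipoproteins, had 4.02, 3.53 and 2.80 CPM in palbociclib recovery and 5.43, 6.30 and 8.78 CPM in palbociclib initial tumours. The initial tumours were all higher, at -0.98 ± 0.40 and an edgeR adjusted p of 0.27. MYLIP, a ubiquitin ligase that limits lipoprotein uptake, had 10.1, 11.8 and 9.17 CPM in palbociclib recovery and 11.2, 11.5 and 15.3 CPM in palbociclib initial tumours, with overlap, at -0.29 ± 0.22. ABCA1 had 3.02, 2.69 and 3.40 CPM in palbociclib recovery and 2.76, 3.62 and 3.48 CPM in palbociclib initial tumours, also with overlap, at -0.11 ± 0.31. None of the 3 passed in edgeR or in DESeq2, which called EBP, FADS1 and INSIG1 among the 33 with 3.51% of all genes higher and 0.913% lower, and 1 had an unadjusted edgeR p under 0.05.

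Vehicle recovery and vehicle initial tumours differ, by their labels, in time and in whether vehicle dosing had ended. Between them 0 of the 33 genes passed in edgeR, where 0% of all genes passed. At an unadjusted edgeR p under 0.05, 3 of the 30 synthesis genes (MSMO1, STARD4 and NSDHL) and ABCA1 were higher and ABCG1 was lower, against 7.97% and 6.46% of all genes. MSMO1 and ABCA1 were higher and ACSS2 and ABCG1 lower at that threshold without vehicle recovery library 2, against 3.45% and 3.44% of all genes. Without vehicle initial libraries 2 and 3 LSS, STARD4 and ABCA1 were higher and ACSS2, FADS2, ABCG1 and MYLIP lower, against 4.02% and 2.94% of all genes. DESeq2 called 1 member, ABCA1, where it called 0.247% of all genes higher and 0.199% lower. The 30 genes had a median log2 fold change of 0.04 with 19 positive, and 2 were higher and 1 lower without overlap, against 6.71% and 8.03% of all genes.

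ABCA1 (ENSG00000165029, chromosome 9, bases 104781002 to 104928237, minus strand), which loads cholesterol onto apolipoprotein A-I, had 6.48, 14.0 and 7.29 CPM in vehicle recovery tumours, against 3.21, 3.39 and 2.37 CPM in vehicle initial tumours. Its counts were 74, 146 and 56 in vehicle recovery and 37, 27 and 15 in vehicle initial tumours. All vehicle recovery tumours lay above the other 9 tumours, and library 2 was the highest. The log2 fold change was 1.62 ± 0.31, with an edgeR adjusted p of 0.21 and a DESeq2 adjusted p of 0.0024. Without vehicle recovery library 2 it was 1.18 ± 0.26, with an edgeR adjusted p of 0.13. The human copies of 3 fibroblast markers summed to 8.75, 44.7 and 10.8 CPM in the vehicle recovery libraries and 5.89 to 10.2 CPM in vehicle initial tumours. Most of the sum in library 2 was COL1A2, at 2.19, 32.7 and 1.82 CPM in the vehicle recovery libraries. In the same libraries COL1A1 had 4.38, 6.83 and 7.16 CPM and PDGFRB 2.19, 5.19 and 1.82 CPM. The part of these markers in the result was not tested.

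The other LXR targets did not follow ABCA1 in vehicle tumours. ABCG1 had 2.36, 0.577 and 2.21 CPM in vehicle recovery and 5.11, 2.01 and 4.59 CPM in vehicle initial tumours. The groups overlapped through vehicle initial library 2, and 0.577 CPM stood for 6 counts, at -1.20 ± 0.45 on the log2 scale and an edgeR adjusted p of 0.32. MYLIP had 7.18, 4.62 and 7.16 CPM in vehicle recovery and 10.1, 6.40 and 9.81 CPM in vehicle initial tumours, with the same kind of overlap, at -0.48 ± 0.24. In both genes library 2 of vehicle recovery was the lowest of the 12 tumours, and without it ABCG1 was at -0.78 ± 0.37 and MYLIP at -0.29 ± 0.23.

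**Figure D4:**
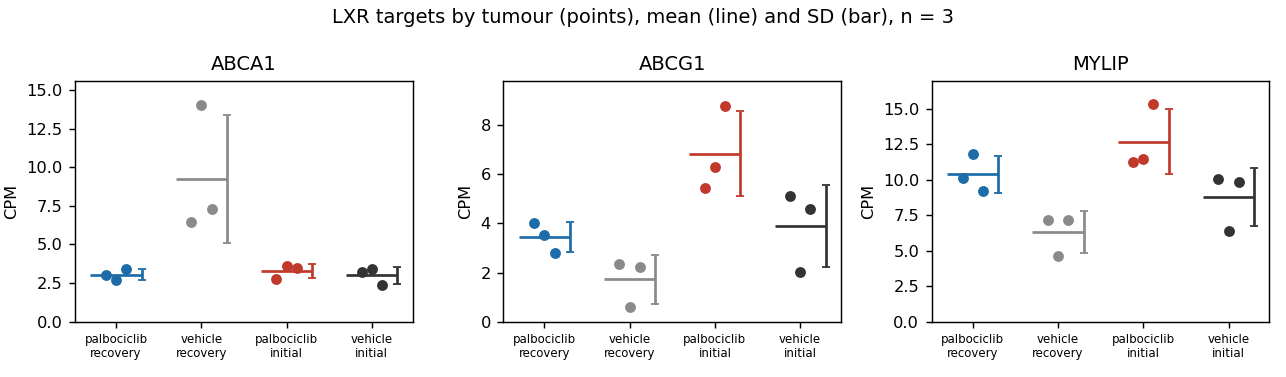
CPM of the 3 LXR targets in every tumour (points), with the mean (line) and SD (bar) of each group of 3. ABCA1 stands at 6.48 to 14.0 CPM in vehicle recovery tumours and below 4 CPM in the others, while the lowest group means of ABCG1 (1.72 CPM) and MYLIP (6.32 CPM) are in the same group.

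In vehicle tumours MSMO1, STARD4 and NSDHL had the smallest p-values among the higher synthesis genes, and ACSS2 and TM7SF2 among the lower ones. None passed. The 3 of 30 that were higher at an unadjusted edgeR p under 0.05 are close to the 7.97% of all genes. MSMO1 had 106, 128 and 79.9 CPM in vehicle recovery and 78.9, 74.9 and 78.9 CPM in vehicle initial tumours. The lowest recovery tumour was just above the initial ones, at 0.43 ± 0.14 and an edgeR adjusted p of 0.31. STARD4, which shuttles cholesterol between membranes, had 73.4, 98.7 and 60.2 CPM in vehicle recovery and 53.6, 61.6 and 60.6 CPM in vehicle initial tumours, with overlap, at 0.41 ± 0.15. NSDHL, a C4 sterol dehydrogenase, had 16.7, 27.2 and 23.8 CPM in vehicle recovery and 16.6, 18.3 and 14.9 CPM in vehicle initial tumours, with overlap, at 0.44 ± 0.17. MSMO1 was at 0.27 ± 0.11, STARD4 at 0.20 ± 0.11 and NSDHL at 0.27 ± 0.16 without vehicle recovery library 2. TM7SF2 had 12.2, 5.001 and 8.85 CPM in vehicle recovery and 13.2, 10.4 and 12.3 CPM in vehicle initial tumours, and ACSS2 had 65.5, 63.3 and 49.3 CPM in vehicle recovery and 89.5, 63.5 and 65.3 CPM in vehicle initial tumours. Both overlapped, at -0.46 ± 0.26 and -0.30 ± 0.15, which were -0.18 ± 0.19 and -0.34 ± 0.15 without that library.

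At the end of treatment, between palbociclib initial and vehicle initial tumours, 0 of the 33 genes passed in edgeR, which called 0.14% of all genes higher and 1.7% lower. DESeq2 called 0 of the 33 too, with 0.344% of all genes higher and 2.5% lower. The direction was mostly downward for the 30 synthesis genes, of which 10 were positive, with a median of -0.10 against 0.001 over all genes. Of the 30, 10 were lower and 2 higher without overlap, against 11.3% and 9.39% of all genes. At an unadjusted edgeR p under 0.05, 7 were lower (FADS1, IDI1, SQLE, INSIG1, CYP51A1, EBP and HMGCS1) and 0 higher, against 6.67% and 3.18% of all genes. Between these groups the palbociclib initial tumours are the same 3 as in the comparison with palbociclib recovery.

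FADS1 had 29.8, 31.1 and 25.5 CPM in palbociclib initial and 37.0, 37.5 and 38.9 CPM in vehicle initial tumours. The groups did not overlap, at -0.39 ± 0.12 on the log2 scale and an edgeR adjusted p of 0.17. SQLE had 86.2, 81.8 and 72.8 CPM in palbociclib initial and 102, 116 and 110 CPM in vehicle initial tumours. It was lower in every palbociclib tumour, at -0.45 ± 0.18 and an edgeR adjusted p of 0.36. IDI1 had 41.4, 41.9 and 35.6 CPM in palbociclib initial and 48.3, 53.4 and 53.8 CPM in vehicle initial tumours, again without overlap, at -0.38 ± 0.14 and an edgeR adjusted p of 0.30. INSIG1 had 123, 113 and 107 CPM in palbociclib initial and 145, 125 and 151 CPM in vehicle initial tumours, likewise apart, at -0.30 ± 0.12 and an edgeR adjusted p of 0.42. HMGCS1 had 68.0, 77.6 and 62.2 CPM in palbociclib initial and 81.6, 83.6 and 103 CPM in vehicle initial tumours, at -0.36 ± 0.17. Its groups did not overlap either.

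Without vehicle recovery library 2 IDI1 and SQLE passed as lower, with edgeR adjusted p-values of 0.040 and 0.012, where 0.874% of all genes were higher and 2.99% lower. Without vehicle initial libraries 2 and 3 0 of the 33 passed in edgeR, where 0% of all genes were higher and 0.464% lower, and the log2 fold changes of SQLE and HMGCS1 were -0.34 ± 0.27 and -0.24 ± 0.24. In that fit 3 of the 30 were lower (ACSS2, CYP51A1 and FADS2) and 0 higher at an unadjusted edgeR p under 0.05, against 3.61% and 1.57% of all genes. With vehicle recovery library 2 alone left out, 9 were lower at that threshold (the 7 named above with ELOVL6 and STARD4) and SREBF1 was higher, as were ABCG1 and MYLIP, against 9.24% and 6.31% of all genes. In the fit without vehicle initial libraries 2 and 3 a single vehicle initial tumour is assumed to vary like the other groups.

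Of the 8 epithelial markers 1 passed at the end of treatment. It was KRT5, a basal keratin, which was higher in palbociclib initial than in vehicle initial tumours, at 0.74 ± 0.17 on the log2 scale and an edgeR adjusted p of 0.040. The summed human copies of the 2 endothelial markers stood at 65.3 to 114 CPM in palbociclib initial and 43.6 to 63.0 CPM in vehicle initial tumours, against 53.0 to 73.3 CPM in palbociclib recovery and 39.0 to 61.1 CPM in vehicle recovery tumours. Nearly all of that was PECAM1, while CDH5, the endothelial cadherin, was at or near 0, with at most 6 counts in a library. The part of these markers, and of the cell cycle genes given above, in the result was not tested.

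The LXR targets and the lipogenic regulator SREBF1 had positive log2 fold changes at the end of treatment, and none of them passed. MYLIP had 11.2, 11.5 and 15.3 CPM in palbociclib initial and 10.1, 6.40 and 9.81 CPM in vehicle initial tumours. ABCG1 had 5.43, 6.30 and 8.78 CPM in palbociclib initial and 5.11, 2.01 and 4.59 CPM in vehicle initial tumours. Both were higher in every palbociclib tumour, at 0.53 ± 0.23 and 0.80 ± 0.41, with edgeR adjusted p-values of 0.45 and 0.57. SREBF1 had 490, 410 and 489 CPM in palbociclib initial and 397, 344 and 373 CPM in vehicle initial tumours, also without overlap, at 0.32 ± 0.19 and an edgeR adjusted p of 0.68. SCD had 1078, 806 and 1083 CPM in palbociclib initial and 904, 862 and 820 CPM in vehicle initial tumours, FASN had 811, 706 and 709.1 CPM against 667, 773 and 678 CPM, and SREBF2 had 157, 142 and 168 CPM against 141, 157 and 162 CPM. Those 3 overlapped, at 0.20 ± 0.13, 0.07 ± 0.16 and 0.02 ± 0.12. ABCA1 had 2.76, 3.62 and 3.48 CPM in palbociclib initial and 3.21, 3.39 and 2.37 CPM in vehicle initial tumours, at 0.12 ± 0.32. Without vehicle initial libraries 2 and 3, the value of ABCG1 was 0.42 ± 0.53 and that of SREBF1 0.22 ± 0.29. Over the 3 LXR targets the values in that fit ran from 0.03 to 0.42, with a median of 0.33.

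**Figure D5:**
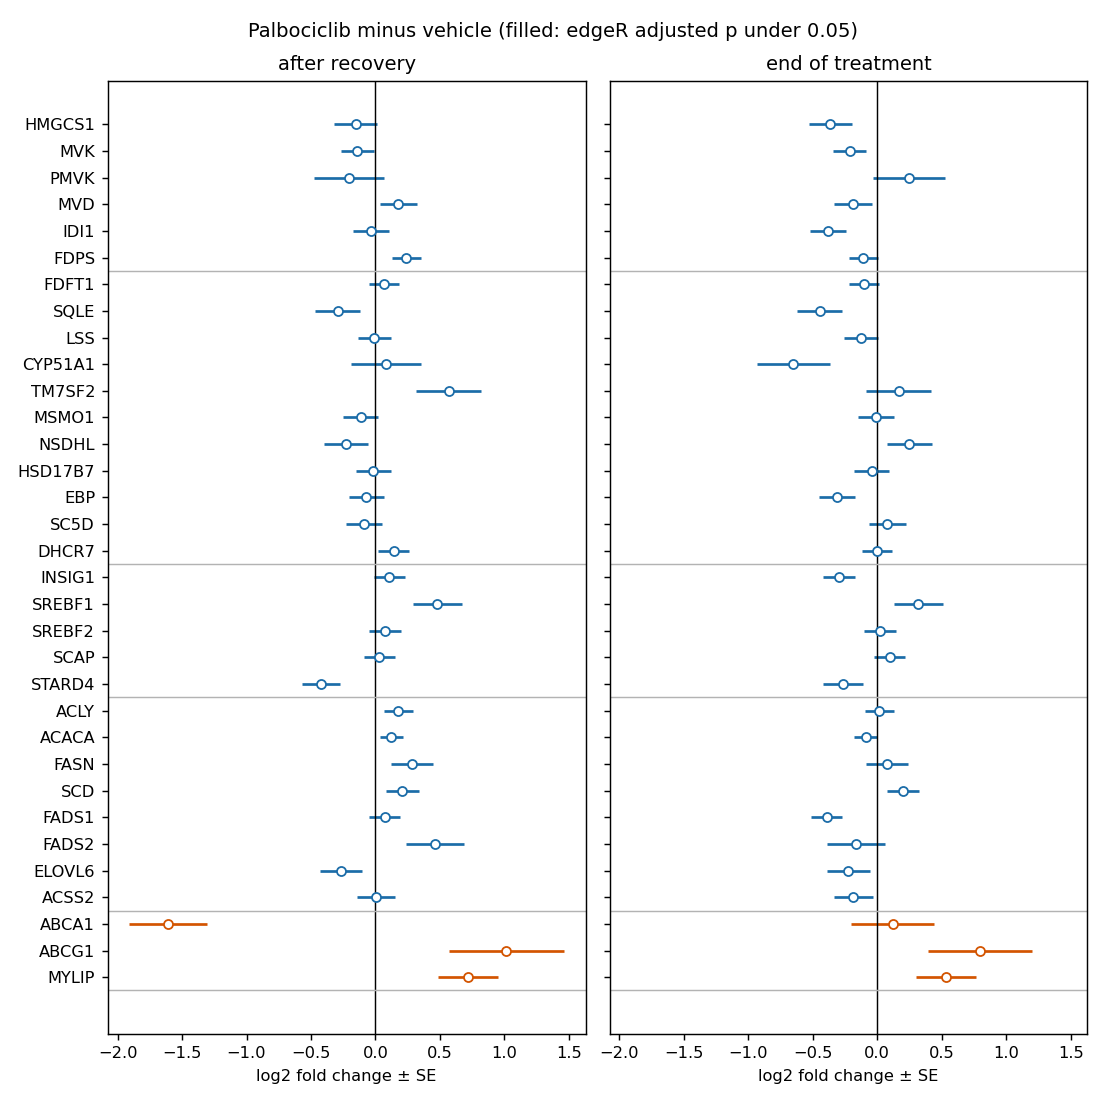
Log2 fold change of palbociclib over vehicle tumours with its SE (horizontal axis) for each of the 33 genes, after recovery (left) and at the end of treatment (right); filled points passed in edgeR. No point is filled, and ABCA1 after recovery, at -1.61, is the farthest from 0.

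After recovery, between palbociclib recovery and vehicle recovery tumours, 0 of the 33 genes passed in edgeR, where 0% of all genes passed as higher and 0.00537% as lower. DESeq2 called 1 member, ABCA1 as lower, where it called 0% of all genes higher and 0.107% lower. The 30 synthesis genes had 17 positive log2 fold changes and a median of 0.05, with 6 higher and 1 lower without overlap, against 6.32% and 5.5% of all genes. At an unadjusted edgeR p under 0.05, SREBF1, TM7SF2 and FDPS were higher and STARD4 was lower among the 30, and ABCG1 and MYLIP were higher and ABCA1 lower among the LXR targets, against 3.21% and 5.44% of all genes. With vehicle recovery library 2 left out, 25 of the 30 were positive, with a median of 0.10, and at an unadjusted edgeR p under 0.05 SREBF1, FADS2 and MYLIP were higher and ABCA1 was lower, against 1.54% and 2.16% of all genes.

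ABCA1 had 3.02, 2.69 and 3.40 CPM in palbociclib recovery and 6.48, 14.0 and 7.29 CPM in vehicle recovery tumours. Each palbociclib tumour was lower than each vehicle tumour, at -1.61 ± 0.30 on the log2 scale, with an edgeR adjusted p of 0.55 and a DESeq2 adjusted p of 0.0053. Without vehicle recovery library 2 it was -1.17 ± 0.25, with an edgeR adjusted p of 0.76. ABCG1 had 4.02, 3.53 and 2.80 CPM in palbociclib recovery and 2.36, 0.577 and 2.21 CPM in vehicle recovery tumours, and MYLIP had 10.1, 11.8 and 9.17 CPM in palbociclib recovery and 7.18, 4.62 and 7.16 CPM in vehicle recovery tumours. Both were higher in every palbociclib tumour, at 1.01 ± 0.45 and 0.72 ± 0.23, with edgeR adjusted p-values of 0.57 each. For ABCG1 the value without vehicle recovery library 2 was 0.59 ± 0.36.

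SREBF1 had 449, 457 and 416 CPM in palbociclib recovery and 379, 199 and 371 CPM in vehicle recovery tumours. The groups did not overlap, at 0.48 ± 0.19 and 0.23 ± 0.11 without the low vehicle library 2. TM7SF2 had 12.9, 14.7 and 11.1 CPM in palbociclib recovery and 12.2, 5.001 and 8.85 CPM in vehicle recovery tumours, with overlap, at 0.57 ± 0.25 and 0.28 ± 0.19 without library 2. STARD4 had 60.2, 58.0 and 55.4 CPM in palbociclib recovery and 73.4, 98.7 and 60.2 CPM in vehicle recovery tumours, the lowest vehicle tumour being close to the highest palbociclib tumour, at -0.42 ± 0.15 and -0.21 ± 0.11 without library 2. SQLE had 114, 113 and 93.9 CPM in palbociclib recovery and 108, 179 and 106 CPM in vehicle recovery tumours, ELOVL6 had 67.2, 56.0 and 62.9 CPM against 61.9, 99.0 and 62.8 CPM, and HMGCS1 had 94.5, 101 and 79.2 CPM against 82.9, 130 and 92.4 CPM. In each of the 3 genes vehicle recovery library 2 was the high tumour, and the groups overlapped, at -0.29 ± 0.17, -0.27 ± 0.16 and -0.15 ± 0.16. Without it SQLE was at -0.002 ± 0.11, ELOVL6 at -0.01 ± 0.11 and HMGCS1 at 0.06 ± 0.13.

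Of the 8 fatty acid genes ACLY, ACACA, SCD and FADS2 were higher without overlap in palbociclib recovery tumours and 0 were lower, against 6.32% and 5.5% of all genes. None of the 8 passed. FASN had 831, 840 and 723 CPM in palbociclib recovery and 757, 469 and 740 CPM in vehicle recovery tumours, with overlap, at 0.28 ± 0.16 and 0.09 ± 0.11 without vehicle recovery library 2. SCD had 917, 995 and 977 CPM in palbociclib recovery and 862, 861 and 780 CPM in vehicle recovery tumours, without overlap, at 0.21 ± 0.13. INSIG1 had 149, 170 and 138 CPM in palbociclib recovery and 160, 129 and 136 CPM in vehicle recovery tumours, at 0.11 ± 0.12 and 0.04 ± 0.12 without that library. SREBF2 had 174, 173 and 138 CPM in palbociclib recovery and 138, 151 and 172 CPM in vehicle recovery tumours, at 0.07 ± 0.12. Both INSIG1 and SREBF2 overlapped between the groups.

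Whether the palbociclib effect after recovery differed from that at the end of treatment was tested as a difference of the 2 effects, in which 0 of the 33 genes passed in edgeR, where 0.22% of all genes were higher and 0% lower. DESeq2 called 0 of the 33 as well, with 0.531% of all genes higher and 0.0268% lower. The 30 synthesis genes had 23 positive differences and a median of 0.16, against 51.3% positive and a median of 0.01 over all genes. At an unadjusted edgeR p under 0.05, FADS1, INSIG1 and FDPS were higher and ABCA1 was lower, against 3.46% and 1.77% of all genes. Leaving out vehicle recovery library 2 took the count of higher synthesis genes at that threshold to 8 (CYP51A1, EBP, FADS1, FADS2, HMGCS1, IDI1, INSIG1 and SQLE), with ABCA1 lower, against 4.22% and 2.07% of all genes. Leaving out vehicle initial libraries 2 and 3 took it to 2 (FADS2 and FDPS), with ABCA1 lower, against 2.36% and 1.44% of all genes. FADS1 stood at 0.46 ± 0.17 and an edgeR adjusted p of 0.77, INSIG1 at 0.40 ± 0.17, FDPS at 0.35 ± 0.16 and FADS2 at 0.63 ± 0.32. On the other side ABCA1 stood at -1.73 ± 0.44, with an edgeR adjusted p of 0.24 and 0.14 without vehicle recovery library 2, where its value was -1.28 ± 0.35. NSDHL, PMVK, which phosphorylates phosphomevalonate, and SC5D, the lathosterol oxidase, had negative values of -0.47 ± 0.24, -0.45 ± 0.39 and -0.17 ± 0.20, which were -0.31 ± 0.22, -0.01 ± 0.27 and -0.08 ± 0.19 without that library. The comparisons share tumours with one another, so their values are set side by side without a test of likeness.

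Lists of other genes of the SREBP machinery, of fatty acid synthesis and of the LXR side and sterol handling gave no call in edgeR in any of the 5 comparisons. Between palbociclib recovery and palbociclib initial tumours 0 of 10 other genes of the SREBP machinery passed, with a median log2 fold change of -0.12, 0 of 11 other fatty acid synthesis genes, with a median of 0.09, and 0 of 10 other genes of the LXR side and sterol handling, with a median of -0.04. At an unadjusted edgeR p under 0.05, INSIG2, a close relative of INSIG1, was higher at 0.52 ± 0.18, MID1IP1, which promotes the assembly of acetyl-CoA carboxylase, was higher at 0.44 ± 0.16, and NR1H2, which encodes LXR beta, was higher at 0.29 ± 0.11, while UBE2G2, a ubiquitin-conjugating enzyme of the endoplasmic reticulum, was lower at -0.28 ± 0.12. Their edgeR adjusted p-values ranged from 0.17 to 0.30. At the unadjusted threshold 1 of 10 SREBP machinery genes was higher and 1 lower. In the fatty acid list 1 of 11 was higher and in the LXR list 1 of 10, with 0 lower in each. Over all human genes tested 8.83% were higher and 5.54% lower, so these few genes do not set the lists apart.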

How the data were processed

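RNA was extracted with RNeasy columns and made into TruSeq RNA libraries, per the labels' protocols. The deposited values are the authors' raw counts per Ensembl gene, human and mouse together; CASAVA 1.8, cutadapt, STAR, edgeR and the builds GRCh38 and GRCm38 stand in the submitters' processing notes, with no role for each. The sources used here do not give the counting program, strand setting, annotation or handling of reads that fit both genomes. In each file 4 rows that name no gene held 36.9% to 68.9% of counts and were left out, and 713 repeated rows were removed.

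Symbols, lengths and coordinates came from GENCODE 29. Human counts of all 12 libraries were fitted in 1 model with 4 group means (edgeR 4.0.16, R 4.3.3, TMM, filterByExpr with minimum count 10 and minimum total 15, robust glmQLFit, glmQLFTest), and p-values were adjusted over all genes by Benjamini-Hochberg. SE is the fold change divided by the square root of F. DESeq2 1.42.0, other filters and scalings, the mouse share as a covariate and left-out libraries were alternatives. The members, the lists and the rule for named genes (10 fixed genes, those that passed and up to 4 of smallest p per direction and comparison) were chosen with earlier results of these data known. The steps were tested on simulated data. Mouse counterparts were not analysed here. A few genes of these pathways are not reported here.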

Additional observations from a re-analysis of the deposited data

How the results depend on the processing

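Over 1617 values recomputed under alternatives, 1523 kept their direction and their side of the threshold (medians and counts stayed within their spread or within 1.5 times), 43 newly passed, 7 no longer passed, 13 changed sign and 31 counts or medians moved. The number of members that passed between palbociclib recovery and palbociclib initial tumours, 1 as reported, was 2 without a low-count filter, with a stricter filter and with upper quartile scaling, 3 in DESeq2, 10 with only the groups compared, 0 without vehicle initial libraries 2 and 3, 11 without those and vehicle recovery library 2 (chosen after seeing the data), and 0 to 10 when 1 library was left out. At the end of treatment the count of 0 became 1 with only the groups compared and 0 to 2 when 1 library was left out. After recovery 0 became 1 without a filter and 1 in DESeq2, in vehicle tumours 2 and 1, and for the difference of effects 1 without a filter. The causes were not tested, except that fits without a library or group have fewer samples.

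Where a sign changed, the value under the alternative lay near 0, apart from a PMVK value. The values first reported were not all near 0, as for SQLE after recovery and PMVK. SREBF2 at the end of treatment was at -0.0537 on the log2 scale with the mouse share as covariate and ranged from -0.0333 to 0.0851 when 1 library was left out. After recovery it was at -0.0128 with the mouse share. For palbociclib recovery over initial it was at -0.0124 with upper quartile scaling and ranged from -0.00668 to 0.155 when 1 library was left out. On the same footing ABCA1 at the end of treatment ranged from -0.00310 to 0.234, HMGCS1 after recovery from -0.288 to 0.0644, its highest without vehicle recovery library 2, and SCD for palbociclib recovery over initial from -0.167 to 0.0329. Without vehicle recovery library 2 and vehicle initial libraries 2 and 3, HMGCS1 after recovery was at 0.0673, SQLE at 0.000696 and the difference of effects of PMVK at 0.232. No paired analysis was possible because the labels give no replicate number shared across groups, and the library numbers used here only name the tumours. ABCG1 and ABCA1, with as few as 6 and 15 counts in a library, are the least precise members.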
